A study of Mus musculus with 16 samples.

Results

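The interferon-stimulated genes described here were 9 genes, Irf7, Usp18, Isg15, Ifit1, Ifit3, Oasl2, Rsad2, Ifi44 and Igtp, taken by their names from a table of liver RNA levels that listed 57010 genes. All 9 names were found, each on 1 row, and all 9 passed the filter on low values, which kept the 11766 genes that averaged 1 TPM or more across the 16 libraries. TPM is a level corrected for transcript length and scaled so that every library sums to the same total, so it can be compared between genes. Each library was made from the liver of 1 wild-type mouse, with 4 mice in each of 4 groups, and the study's methods give all mice as male C57BL/6J aged 8 to 12 weeks. The Cd group (mice 1, 2, 5 and 6) was injected with CdCl2 into the peritoneum every day for the last 7 days at 1.25 mg/kg. The Se group (mice 39, 40, 41 and 44) ate a diet with 2 ppm selenomethionine (SeMet) for 3 months, the Cd+Se group (mice 13, 14, 15 and 16) had both treatments, and the control group (mice 27, 28, 29 and 30) had neither. A figure legend of the study starts the SeMet diet in mice of 8 weeks. The stated 8 to 12 weeks are therefore read as the age at the start, and the age at sampling is not given. The sources used here do not say what the control and Se groups were injected with, or which diet the control and Cd groups ate. The libraries were poly(A)-selected, and TPM keep no read depth, so the depth of each library is unknown. Each SD below rests on the 4 mice of its group. Standard errors, intervals and p-values come from 1 fit of all 16 libraries, which draws on the spread in every group and of other genes.

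The labels were checked against marker genes. Alb, which encodes serum albumin, lay between 22135 and 86649.8 TPM over the 16 libraries, and none of 5 hepatocyte genes passed the test between Cd and control. After centring the libraries on their medians 2 rose, where 2260 of all 11766 genes rose. Mt1, a metallothionein that binds cadmium, was at 50.9 to 221 TPM in control mice and 3178 to 4899 TPM in Cd mice, and at 64.3 to 431 TPM in Se mice and 3621 to 6070.3 TPM in Cd+Se mice. The groups with and without cadmium therefore did not overlap. Cd mice 5 and 6 stood apart in another way. The median level of all tested genes, on the log2(TPM + 1) scale, was 2.68 in mouse 5 and 2.90 in mouse 6, against 3.12 and 3.08 in Cd mice 1 and 2 and 3.06 to 3.36 in the other groups. For this reason the fits were repeated without these mice. Fits with the libraries brought to a common distribution (quantile normalization) or a common median had been planned before. Many of the calls lost in these settings are named beside the results, and others enter the counts only. Leaving out these mice also leaves a Cd group of 2, and 2102 in place of 3619 genes then passed in Cd against control.

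Interferons are secreted by cells that sense foreign or misplaced nucleic acids. Interferons alpha and beta bind a receptor that activates the kinases JAK1 and TYK2, which lead to the assembly of the factor ISGF3, and ISGF3 turns on genes that carry an interferon-stimulated response element. Interferon gamma acts through its own receptor and on genes that carry gamma-activated sites. In the liver, hepatocytes, Kupffer cells and recruited leukocytes all respond to interferons. Among the 9 genes, Irf7 is a transcription factor that amplifies interferon production, Isg15 is a ubiquitin-like modifier, and Usp18 removes Isg15 from proteins and also damps signalling at the interferon receptor. Ifit1 and Ifit3 belong to a family of RNA-binding antiviral proteins, Oasl2 is a relative of the oligoadenylate synthetases, and Rsad2 encodes viperin, an antiviral radical SAM enzyme. Ifi44 is a marker of interferon alpha and beta exposure, and Igtp (also called Irgm3) is a GTPase induced mainly by interferon gamma.

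To describe these genes outside the measurements, their promoters were read from RefSeq sequence of the mouse build GRCm38.p6, from 250 bases before to 50 bases after each start. Of the 9 genes, 8 were matched, and Usp18 was not analysed here. The core of the interferon-stimulated response element, GAAANNGAAA searched on both strands, occurred in 1131 of 32851 promoters of the same length, or 3.44%, and in 5 of the 8 matched genes, Isg15, Ifit1, Ifit3, Rsad2 and Igtp. The core of the gamma-activated site, TTCNNNGAA, which reads the same on both strands, occurred in 8.30% of all promoters and in 1 of the 8 genes, Igtp, where it lay 45 to 37 bases before the start and did not overlap the other match. The windows that hold the core of the response element are printed below because ISGF3 acts on genes that carry this element. Isg15 and Igtp, the pair that moved in opposite directions after cadmium, both carry the core. Each window is read 5′ to 3′ on the strand of its gene, and capitals mark the matches, which read TTTCNNTTTC where the core is on the other strand.
Isg15 (chr4:156200871-156200900, minus strand, 3 overlapping cores from 78 to 57 bases before the start): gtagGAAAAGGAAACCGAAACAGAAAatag
Ifit1 (chr19:34640784-34640813, plus strand, 2 cores): gTTTCACTTTCcagtctcagTTTCAGTTTC
Ifit3 (chr19:34583363-34583392, plus strand, farther core): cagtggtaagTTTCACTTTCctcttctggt
Ifit3 (chr19:34583397-34583426, plus strand, nearer core): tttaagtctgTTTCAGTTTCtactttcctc
Rsad2 (chr12:26456553-26456582, minus strand): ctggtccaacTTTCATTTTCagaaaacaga
Igtp (chr11:58199512-58199541, plus strand): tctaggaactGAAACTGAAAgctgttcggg
Isg15 had the most cores, and in Igtp the core lay nearest to the start, from 34 to 25 bases before it. The windows of Irf7, Oasl2 and Ifi44 held no match to these letters. A match is a description of the sequence and says nothing of binding in these livers.

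**Figure D1:**
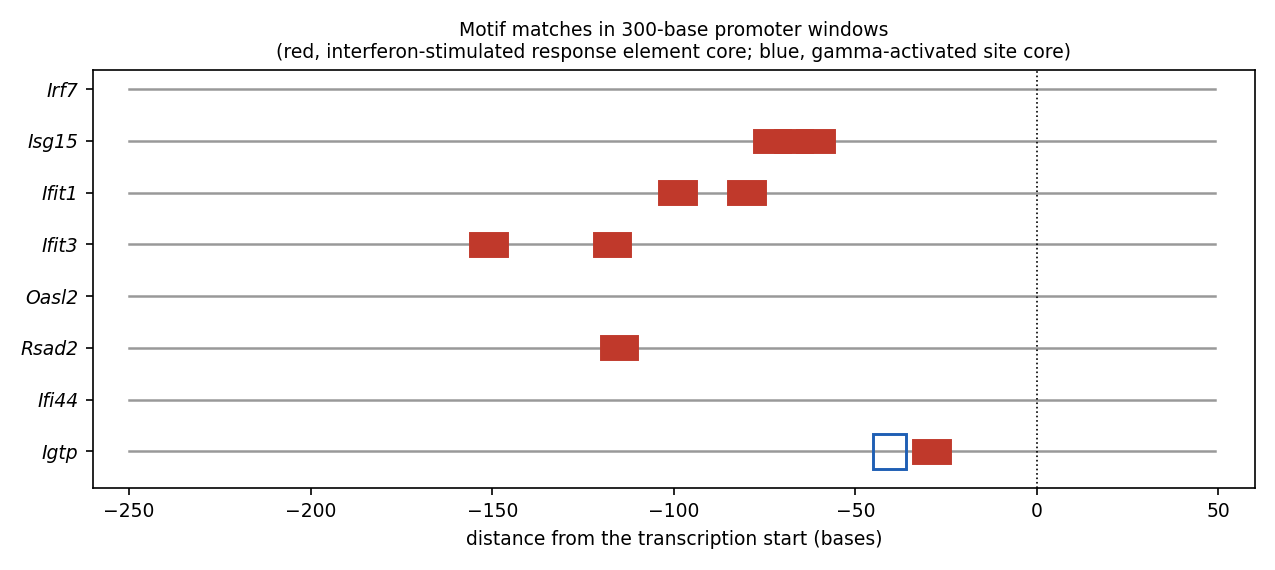
Position of motif matches (bases from the transcription start, x axis) in the 300-base promoter windows of the 8 matched genes, 1 line per gene, with filled red boxes for the core of the interferon-stimulated response element and an open blue box for the core of the gamma-activated site. Matches were found in 5 genes, all of them before the start, and Igtp alone held both kinds.

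The 9 genes were expressed at low to middle levels in these livers. Over all 16 libraries, Igtp (mean 17.4 TPM) and Irf7 (17.3 TPM) were the most abundant, followed by Isg15 (8.81 TPM), Ifit3 (6.56 TPM), Usp18 (5.57 TPM) and Oasl2 (3.20 TPM). Ifit1 (2.18 TPM), Ifi44 (1.47 TPM) and Rsad2 (1.24 TPM) were lowest, and Rsad2 stood at percentile 3.85 of the 11766 genes tested, whereas Igtp stood at percentile 70.7. The ratio of the highest to the lowest library was smallest for Irf7 (1.74) and largest for Ifit3 (4.76). No gene was at 0 in any library, the lowest single value being 0.560 TPM of Ifi44 in Cd+Se mouse 15. The sum over the 9 genes was 63.0 ± 5.62 TPM in control, 56.2 ± 2.97 in Cd, 73.8 ± 12 in Cd+Se and 61.7 ± 6.74 in Se livers, in TPM with the SD of 4 mice, so the spread was widest in the Cd+Se group.

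**Figure D2:**
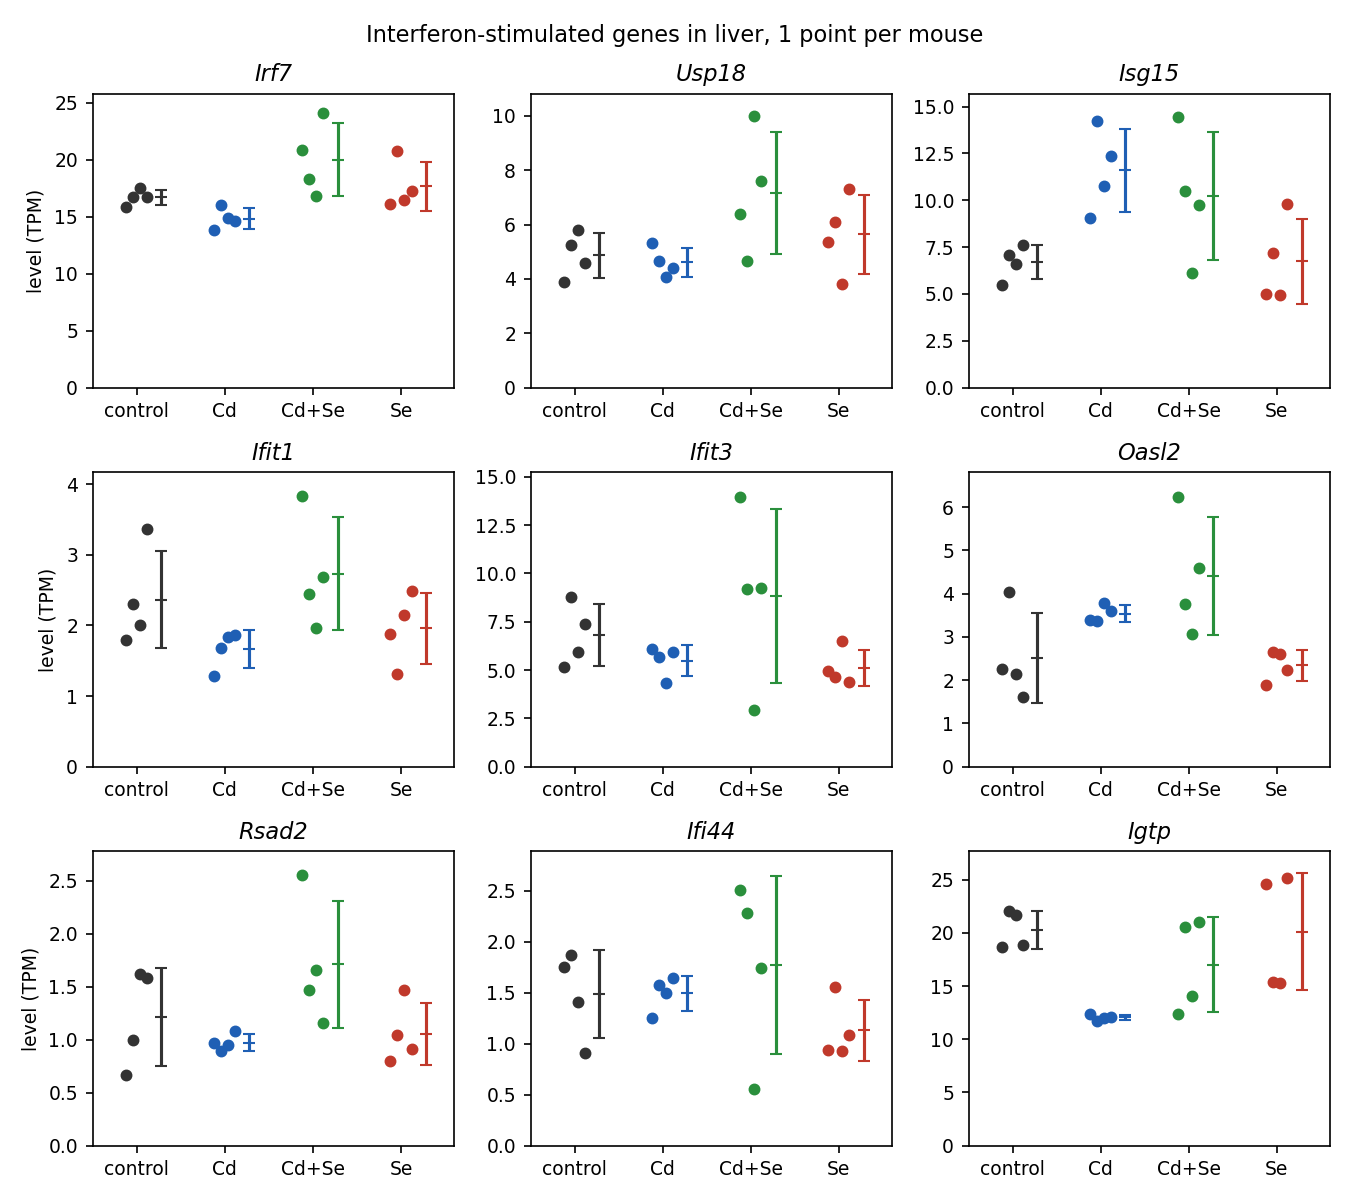
Level (TPM, y axis from 0) of each of the 9 genes in every mouse, with 1 point per mouse, and beside the points the mean ± SD (n = 4) of control, Cd, Cd+Se and Se groups. The Cd values of Isg15 (9.07 to 14.24 TPM) sit above all control values and those of Igtp (11.75 to 12.4 TPM) below them, and Cd+Se mice are widely spread in most panels.

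The comparison of Cd with control mice asked what cadmium did without the SeMet diet. Isg15 rose and Igtp fell, and the other 7 genes did not pass the test. Thus 2 of the 9 genes changed, 1 in each direction, while 30.8% of all genes tested changed in this comparison (5.82% higher and 24.9% lower). Of all genes that passed, 81.1% fell, or 57.1% after quantile normalization and 44.4% after centring on the median. Under either of these scalings Isg15 and Oasl2 were the genes of the 9 that passed, both higher, and Igtp did not pass. Of all 11766 genes, 3986 and 4064 passed in these 2 fits, 1710 and 2260 of them higher. The median difference of the 9 genes was -0.15 on the log2(TPM + 1) scale and that of all tested genes was -0.17. No test of the 9 genes as a group was made.

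Isg15, the ubiquitin-like modifier, was at 5.49, 7.06, 6.6 and 7.63 TPM in control mice 27 to 30. In Cd mice 1, 2, 5 and 6 it was at 9.07, 14.24, 10.75 and 12.35 TPM. Every Cd mouse lay above every control mouse, a pattern that 6.44% of all genes tested showed (34.2% in either direction), and the ratio of the group means (11.6 ± 2.21 against 6.69 ± 0.907 TPM, SD, n = 4) was 1.73. The log2 fold change was 0.70 with a standard error of 0.224, a 95% interval of 0.23 to 1.18 and an adjusted p of 0.0264 (limma on log2(TPM + 1), Benjamini-Hochberg over all genes tested). The direction held in all 26 alternatives, with values from 0.61 to 0.92, but the adjusted p exceeded 0.05 in 6 of them. It was 0.0729 without control mouse 27, 0.0574 without control mouse 29, 0.0727 without Cd mouse 2, 0.0588 without Cd mouse 6, 0.115 without both Cd mice 5 and 6 and 0.0707 without a filter on low values.

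Igtp, the GTPase, was at 18.68, 22.03, 21.64 and 18.83 TPM in control mice. It was at 12.4, 11.75, 11.99 and 12.07 TPM in Cd mice, the narrowest group of values of the 9 genes relative to its level. All Cd values lay under all control values, as in 27.8% of all genes tested, and the ratio of the means (12.1 ± 0.269 against 20.3 ± 1.79 TPM) was 0.594. The log2 fold change was -0.70 with a standard error of 0.182 and an interval of -1.09 to -0.32 (adjusted p = 0.00919, limma). Leaving out 1 mouse at a time kept the adjusted p between 0.00625 and 0.0295. It was 0.0573 without Cd mice 5 and 6, at the same fold change of -0.70. With the libraries brought to a common distribution or a common median, the fold change shrank to -0.53 (adjusted p = 0.0572) and -0.48 (adjusted p = 0.0718). In the mouse annotation Igtp overlaps Irgm2 on the same strand, so reads of this pair may be shared between them, and Irgm2 itself fell from 19.1 ± 0.994 to 8.35 ± 1.78 TPM.

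Because Isg15 and Igtp moved in opposite directions, their ratio within a library, which does not depend on how libraries are scaled, was formed after these values were seen and is given without a test. It was 0.294 to 0.405 in control mice, 0.731 to 1.21 in Cd mice and 0.203 to 0.466 in Se mice. In Cd+Se mice it was 1.17 in mouse 13 and 0.437 to 0.511 in the other 3 mice, above every control mouse in each case.

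Oasl2, which resembles the oligoadenylate synthetases, was at 2.26, 4.03, 2.15 and 1.61 TPM in control and 3.39, 3.37, 3.78 and 3.61 TPM in Cd mice. The groups overlapped through control mouse 28 only, and the log2 fold change of 0.41 missed the threshold (adjusted p = 0.112, limma). It passed without control mouse 28 (0.60, adjusted p = 0.0223), and also after quantile normalization (0.60, adjusted p = 0.0282) and after centring on the median (0.63, adjusted p = 0.0259). Ifit1 was at 2.37 ± 0.693 TPM in control and 1.67 ± 0.269 TPM in Cd mice, with a log2 fold change of -0.32 (adjusted p = 0.180). Irf7 was at 16.7 ± 0.655 and 14.8 ± 0.911 TPM, a log2 fold change of -0.16 (adjusted p = 0.293), and 3 of the 4 Cd mice lay below all control mice. The fold changes of Ifit3 (-0.25), Rsad2 (-0.15), Usp18 (-0.06) and Ifi44 (0.02) had adjusted p-values from 0.539 to 0.955 in the same test. For Ifit3 the 95% interval ran from -0.87 to 0.36. The sign of the fold change turned for Irf7 and Usp18 under both scalings and for Rsad2 after centring only (0.07, against -0.03 after quantile normalization).

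The comparison of Cd+Se with Cd mice asked what the SeMet diet did in cadmium-treated animals. Irf7 was the only 1 of the 9 genes that passed the test, and it rose, while 15.9% of all genes tested changed (13.6% higher and 2.35% lower). The share of all genes depended on the fit. Of the 11766 genes, 1876 passed, but 66 did in a fit limited to the groups compared and 712 to 2164 on leaving out 1 mouse. The share of passing genes that fell was 14.7%, or 43.7% after quantile normalization and 57.6% after centring. The fold changes of 8 of the 9 genes were above 0, with a median of 0.43 beside a median of 0.17 over all tested genes. Under both scalings Isg15 and Ifi44 were below 0 and the other genes above. The largest fold change, 0.51 in the main fit (Usp18), was then 0.32 after quantile normalization (Ifit1) and 0.31 after centring (Usp18). The medians of all tested genes were 0.01 and -0.02. Irf7, Ifit1 and Rsad2 were higher in every Cd+Se mouse than in every Cd mouse, that is 3 of 9 genes, and 16.1% of all genes tested showed this pattern (19.2% in either direction). This comparison uses the same Cd mice as the preceding one, so values that were low in these 4 animals enter both.

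Irf7, the transcription factor, was at 13.81, 16.01, 14.87 and 14.6 TPM in Cd mice. In Cd+Se mice 13 to 16 it was at 20.81, 18.31, 16.8 and 24.05 TPM. The groups did not overlap, and the ratio of the means (20 ± 3.17 against 14.8 ± 0.911 TPM) was 1.35. The log2 fold change was 0.40 with a standard error of 0.114, an interval of 0.16 to 0.64 and an adjusted p of 0.0293 (limma). The adjusted p exceeded 0.05 in 10 of 26 alternatives. It did so without any 1 of Cd mice 1, 5 and 6 or of Cd+Se mice 13, 14 and 16 (0.0519 to 0.0842, at fold changes of 0.31 to 0.43). The same held without Cd mice 5 and 6 together (0.39, adjusted p = 0.125) and with the fit limited to the groups compared (0.40, adjusted p = 0.114). The fold change shrank with libraries brought to a common distribution (0.23, adjusted p = 0.158) or median (0.20, adjusted p = 0.216). Irf7 overlaps Phrf1 on the other strand, and the sources used here do not say whether strand was used in counting.

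Ifit1 was at 1.28, 1.68, 1.84 and 1.86 TPM in Cd mice and 3.84, 2.45, 1.96 and 2.69 TPM in Cd+Se mice. Rsad2, which encodes viperin, was at 0.97, 0.89, 0.95 and 1.08 TPM in Cd and 2.55, 1.47, 1.66 and 1.16 TPM in Cd+Se mice. In both genes the lowest Cd+Se mouse lay just above the highest Cd mouse, and the highest value was that of mouse 13. Their log2 fold changes of 0.47 and 0.43 had adjusted p-values of 0.0794 and 0.10 (limma), and neither passed in any alternative that left out a mouse.

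Usp18, the protease that removes Isg15, was at 5.32, 4.65, 4.07 and 4.4 TPM in Cd and 6.39, 4.66, 10 and 7.62 TPM in Cd+Se mice. It was highest in mouse 15, and the groups overlapped through mouse 14 (log2 fold change 0.51, adjusted p = 0.0808, or 0.67 and 0.0465 without that mouse). Ifit3 behaved otherwise in the same animals. It was at 6.08, 5.67, 4.31 and 5.92 TPM in Cd and 13.95, 9.18, 2.93 and 9.26 TPM in Cd+Se mice, so that 3 Cd+Se mice lay above all Cd mice and mouse 15 lay below all of them. The log2 fold change of Ifit3 was 0.46 (adjusted p = 0.290, limma), and without mouse 15 it was 0.85 (adjusted p = 0.0183). Ifit3 has a near-identical copy, Ifit3b, and how reads were divided between the pair is not given in the sources used here.

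Igtp was at 12.36, 20.56, 14.05 and 21.05 TPM in the Cd+Se group, with mouse 13 inside the range of the Cd mice and mice 14 and 16 inside that of the control mice. Its log2 fold change over Cd was 0.43 (adjusted p = 0.113), or 0.56 without mouse 13 (adjusted p = 0.0470). Isg15 was at 14.45, 10.5, 6.14 and 9.75 TPM in Cd+Se mice and overlapped the Cd group on both sides, with a log2 fold change of -0.20 (interval -0.68 to 0.27, adjusted p = 0.552). Oasl2 (0.22, adjusted p = 0.440) and Ifi44 (0.09, adjusted p = 0.803) did not pass, and the sign for Ifi44 turned under other scalings and without Cd+Se mouse 13 or 14.

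Set against control mice, the Cd+Se group showed no gene of the 9 that passed the test, where 0.484% of all genes tested passed. Fold changes were above 0 for 8 genes, and Oasl2 had the largest (0.63, interval 0.23 to 1.04, unadjusted p = 0.00433, adjusted p = 0.196, limma). Usp18 (0.44) and Isg15 (0.50) also had an unadjusted p under 0.05, as did 10.9% of all genes tested, at adjusted p-values of 0.412 and 0.428. No gene had groups that did not overlap, a pattern found in 8.86% of all genes tested. For Irf7, Usp18, Isg15 and Ifit3, 3 of the 4 Cd+Se mice lay above all control mice.

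The SeMet diet without cadmium moved none of the 9 genes past the test. None passed against control in limma, none had an unadjusted p under 0.05, and 0 of the 11766 genes tested passed (0%, with 454 genes or 3.86% at an unadjusted p under 0.05). Fold changes ran from -0.34 (Ifit3) to 0.16 (Usp18) with a median of -0.05, beside 0.01 for all genes. Igtp was at 24.62, 15.35, 15.32 and 25.15 TPM in Se mice, 2 above and 2 below all control mice. Isg15 was at 5.01, 7.16, 4.96 and 9.81 TPM, also on both sides of the control group. No gene of the 9 had groups without overlap, against 3.09% of all genes.

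Cadmium on the SeMet diet was read from the Cd+Se and Se groups. None of the 9 genes passed, where 0.714% of all genes tested did. Oasl2 was at 1.88, 2.65, 2.61 and 2.23 TPM in Se and 6.24, 3.77, 3.06 and 4.59 TPM in Cd+Se mice. It was the only gene of the 9 whose groups did not overlap, which 1.96% of all genes tested showed in this direction and 5.64% in either, and its log2 fold change was 0.67 (interval 0.26 to 1.07, adjusted p = 0.159, limma, with 0.0531 as the lowest adjusted p on leaving out a mouse). The fold change of Isg15 was 0.53 (adjusted p = 0.394), beside its 0.70 without the SeMet diet, and that of Igtp was -0.23 (adjusted p = 0.734), beside its -0.70. Ifit3 was at 0.55 (adjusted p = 0.524) and, without Cd+Se mouse 15, at 0.94 (adjusted p = 0.0184).

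The difference between the effects of cadmium with and without the SeMet diet was tested directly as an interaction. No gene of the 9 passed, where 1.04% of all genes did. The estimates were 0.80 for Ifit3 (adjusted p = 0.274), 0.65 for Ifit1 (0.159), 0.48 for Igtp (0.294) and -0.18 for Isg15 (adjusted p = 0.786, interval -0.85 to 0.50). The wide intervals leave room for differences as large as the effects themselves, and an effect on Isg15 and Igtp that passed on 1 diet only was not shown to differ between diets. Without Cd+Se mouse 15 the estimate for Ifit3 was 1.19 (adjusted p = 0.0394).

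**Figure D3:**
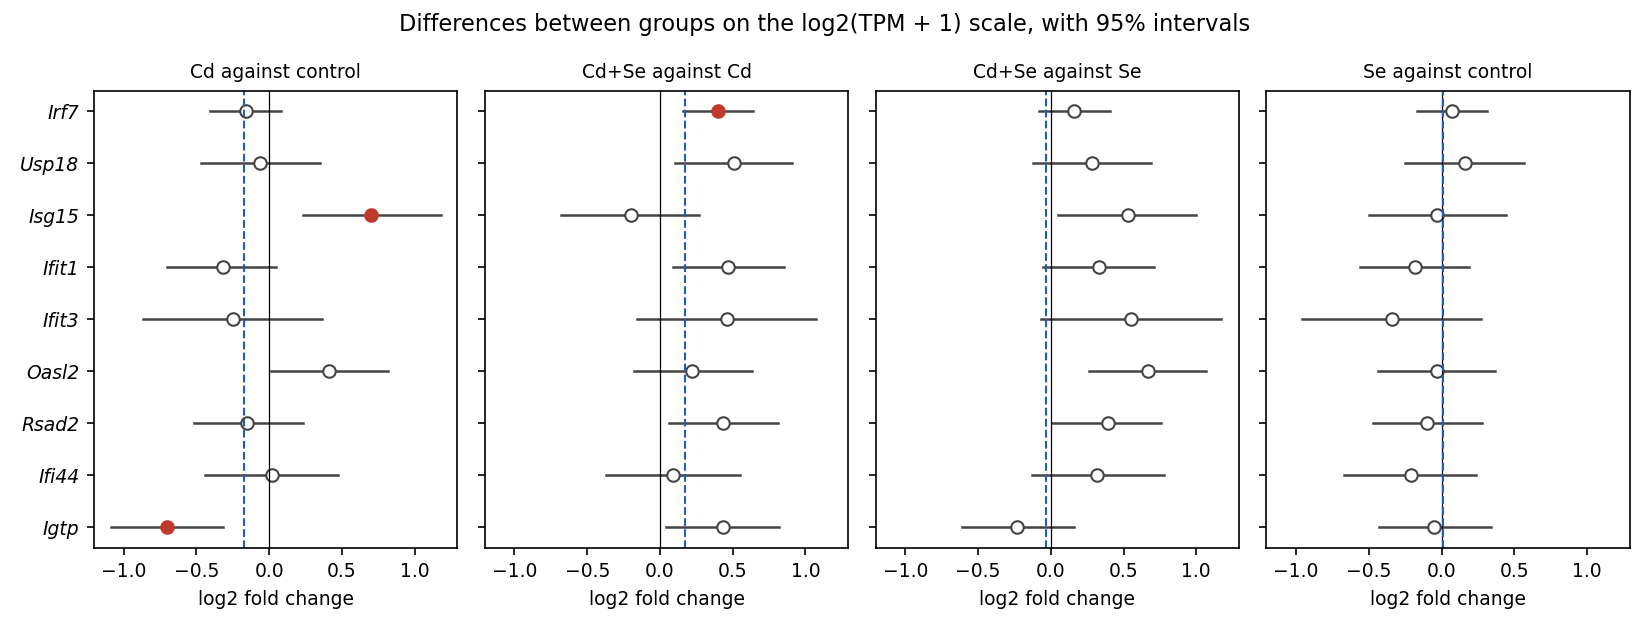
Log2 fold change of TPM + 1 (x axis) with its 95% interval for each of the 9 genes in 4 comparisons, with filled red points for an adjusted p under 0.05 (limma) and a dashed blue line at the median of all tested genes. Isg15 (0.70) and Igtp (-0.70) are filled in Cd against control and Irf7 (0.40) in Cd+Se against Cd, and no point is filled in the other 2 panels.

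The 9 genes varied only loosely together. Over the 16 libraries the 36 pairs had Pearson correlations from -0.48 to 0.70 with a median of 0.28, and after subtracting the group means the median was 0.12, with 25 of 36 above 0. These are descriptions over libraries that share groups and scaling. With group differences left in, Ifit3 and Ifi44 (0.70) and Oasl2 and Ifi44 (0.66) were the most alike pairs, and Isg15 and Igtp (-0.48) the least alike. After subtracting the group means, Oasl2 and Ifi44 (0.70) and Ifit3 and Ifi44 (0.68) came first and Rsad2 and Igtp (-0.57) last, and Isg15 and Igtp stood at 0.09. Ifi44 was at 2.51, 2.28, 0.56 and 1.74 TPM in Cd+Se mice, so mouse 13 was high and mouse 15 low in both Ifi44 and Ifit3. Usp18 ran against this in mouse 15, where the ratio of Usp18 to Ifit3 was 3.41, against 0.458 to 0.823 in the other Cd+Se mice. Mouse 13 held the highest value of its group for Isg15, Ifit1, Ifit3, Oasl2, Rsad2 and Ifi44 and the lowest for Igtp.

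The genes whose pattern was most like the mean standardised level of the 9 over 16 libraries were Itgb2 (r = 0.88), Pkm (0.86) and Cd68 (0.84), followed by Abr, Slc43a2, Ifit2, Sirpa, Evi2a, Lyz2 and Ifi204 (0.84 to 0.81). Itgb2 encodes the shared chain of leukocyte integrins, Cd68 a lysosomal protein of macrophages and Lyz2 the lysozyme of myeloid cells, and Ifit2 and Ifi204 are interferon-induced. Differences between the groups entered this measure, so no test between groups is drawn from this ranking of 10 genes. Lyz2 and Ifi204 also belong to lists of marker and pathway genes below and were tested there as members of those lists. With the group means subtracted, the list changed altogether and was led by Mettl17 (0.89), Gm49284 (0.89), Cep57l1 (0.88), 2610008E11Rik (0.88) and Etaa1 (0.87), then by Ube2l6 (0.86), which encodes the conjugating enzyme for Isg15, Trim12c (0.86), Mterf1a (0.85), Zfp62 (0.82) and Rnf213 (0.82).

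The rest of the interferon pathway was followed from the ligands to the induced genes. Of 21 interferon genes in the table, 19 were listed at 0 in all 16 libraries, and none reached the filter. Ifng, which encodes interferon gamma, was above 0 in 8 libraries and highest in Cd mouse 2 (0.76 TPM), and Ifnk did not exceed 0.21 TPM. None of 5 receptor genes tested passed in Cd against control, where 30.8% of all genes did, and Ifnar1 was at -0.41 (adjusted p = 0.0560) and Ifngr1 at -0.22 (adjusted p = 0.359). Ifnar2 was at 0.30 (adjusted p = 0.0604), but it passed after quantile normalization (0.40, adjusted p = 0.00801) and after centring on the median (0.52, adjusted p = 0.00126), and its adjusted p exceeded 0.05 in 20 of 26 alternatives.

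Below the receptors, 1 of 5 signalling genes passed in Cd against control, where 30.8% of all genes did. Jak1, the kinase shared by the receptors of both kinds of interferon, was at 27.66, 28.19, 27.22 and 25.37 TPM in control and 18.33, 18.72, 11.09 and 15.93 TPM in Cd mice. The groups did not overlap, and Jak1 fell by 0.75 on the log2 scale (adjusted p = 0.00108, limma), with an adjusted p of at most 0.05 in all 26 alternatives. Against Cd mice, 2 of the 5 rose in Cd+Se mice, where 13.6% of all genes rose. Jak1 rose by 0.70 (adjusted p = 0.00686, at most 0.05 in 25 of 26 alternatives). Jak2 rose by 0.47 (adjusted p = 0.0467), but this p exceeded 0.05 in 17 of 25 alternatives, among them both scalings and the fit without Cd mice 5 and 6, and Jak2 had not passed in Cd against control (-0.34, adjusted p = 0.0941). Stat2 (-0.03, adjusted p = 0.901) and Irf9 (-0.02, adjusted p = 0.891), which are parts of ISGF3, did not pass in Cd against control.

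Among the sensors of nucleic acids and their adaptors, 1 of 11 genes rose and 5 fell with cadmium, where 5.82% of all genes rose and 24.9% fell. Ikbke, a kinase that activates interferon regulatory factors, rose (1.01, adjusted p = 0.00256), whereas the RNA sensors Tlr3 (-0.86, adjusted p = 0.000424) and Rigi (-0.48, adjusted p = 0.0414), the adaptor Mavs (-0.83, adjusted p = 0.00401) and the kinase Tbk1 (-0.47, adjusted p = 0.0170) fell. Tbk1 (0.49) and Tlr3 (0.41), 2 of the 11, rose in Cd+Se against Cd, where 13.6% of all genes rose. Tlr3 was also low in Se mice, which had no cadmium. It was at 3.41 to 4.32 TPM in control, 1.79 to 2.59 in Se, 1.47 to 2.11 in Cd and 1.91 to 2.96 TPM in Cd+Se mice. No gene passed the test between Se and control mice, and 3.09% of all genes had groups without overlap there. Of 6 interferon regulatory factors other than Irf7, only Irf5 passed in either comparison, with -0.66 in Cd against control and 0.56 in Cd+Se against Cd. Of 9 negative regulators tested, the phosphatase Ptpn1 (-0.75), the SUMO ligase Pias1 (-0.67) and the RNA deaminase Adar (-0.51) fell in Cd mice, and these 3 and Samhd1 rose in Cd+Se against Cd by 0.44 to 0.74. The shares of all genes just given apply to these lists too, and with so few genes in each list nothing is read from the counts. Ikbke, Tlr3, Mavs and Ptpn1 passed in Cd against control under both scalings and without Cd mice 5 and 6. Rigi did not pass in any of these settings (-0.26 and adjusted p = 0.185 under either scaling), nor did Adar (-0.29 and adjusted p = 0.0573 after centring), and Tbk1 was lost after centring (-0.25, adjusted p = 0.0611) and without the mice (-0.21, adjusted p = 0.225). Ticam1, an adaptor that also fell (-0.41), passed in none of these settings. It was at -0.19 after centring (adjusted p = 0.284) and at -0.38 without the mice (adjusted p = 0.0750). Of the 11 sensors and adaptors, 3 fell after quantile normalization, 2 after centring and 2 without the mice. Irf5 and Pias1 were lost without the mice only, at adjusted p-values of 0.0988 and 0.0538. After centring, 3 regulatory factors and 1 negative regulator rose with cadmium. Of all 11766 genes, 1710 rose and 2276 fell with cadmium after quantile normalization, and 2260 rose and 1804 fell after centring. Of the rises in Cd+Se against Cd, that of Ptpn1 passed in all 3 settings and that of Tbk1 after quantile normalization, and those of Tlr3, Irf5, Pias1, Adar and Samhd1 passed in none. Without the mice, Tlr3 was at 0.53, above its 0.41 in the main fit, Samhd1 at 0.46, Irf5 at 0.33, Pias1 at 0.31 and Adar at 0.30. After centring these genes were at 0.22 to 0.37.

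Further interferon alpha and beta targets moved both ways. Of 48 tested, 2 rose and 10 fell in Cd mice, where 5.82% of all genes rose and 24.9% fell, a split that became 6 and 9 after quantile normalization and 7 and 7 after centring on the median. Of all 11766 genes, 1710 rose and 2276 fell under the former scaling, and 2260 rose and 1804 fell under the latter. Cxcl10, a chemokine that draws T cells, was at 2.31, 2.12, 2.13 and 2.48 TPM in control and 9.7, 8.8, 5.46 and 9.3 TPM in Cd mice (1.49, adjusted p = 0.00125). Dtx3l and Parp9, partners in 1 ubiquitin ligase complex, fell (-1.0, adjusted p = 0.000147, and -0.91, adjusted p = 0.000215), and Gm4951 fell by 1.02 (adjusted p = 0.00102). Against Cd mice, 8 of the 48 rose in Cd+Se mice and none fell, near the 13.6% of all genes that rose and the 2.35% that fell. The largest rises were those of Trim25 (0.77), Dtx3l (0.73), Gm4951 (0.72) and Eif2ak2 (0.68). Without Cd mice 5 and 6, 2 of the 48 rose and 6 fell in Cd against control, Cxcl10, Dtx3l, Parp9 and Gm4951 among them. In Cd+Se against Cd 3 rose in that setting, Dtx3l (0.66) among them, and Trim25 (0.58), Eif2ak2 (0.59) and Gm4951 (0.37) did not pass. Cxcl10 was also raised in Cd+Se mice, by 1.76 over control (adjusted p = 0.00682) and by 1.94 over Se mice (adjusted p = 0.00204). Slfn2 was called in the same comparisons, at 0.91 and 0.86, and Phf11d in the latter, at 0.60 (adjusted p = 0.0499, over 0.05 in 15 of 25 alternatives). In a fit limited to the groups compared, none of the 48 genes passed in either comparison.

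Of 16 genes of the interferon gamma group tested, 3 fell and 1 rose in Cd mice, where 24.9% of all genes fell and 5.82% rose. Irgm2 (-1.12, adjusted p = 0.000359), Irgm1 (-0.66, adjusted p = 0.000780) and Iigp1 (-0.38, adjusted p = 0.0221), all GTPases of the family of Igtp, fell, and the chemokine Cxcl9 rose (1.12, adjusted p = 0.0119). Irgm2 is the gene that may share reads with Igtp, and Tgtp1, another GTPase of this family, did not pass (-0.29, adjusted p = 0.351). Irgm1 was at 25.8 to 30.5 TPM in control mice and 15.3 to 19.9 TPM in Cd mice, which did not overlap. After centring on the median the fall of Irgm2 (-0.90) and Irgm1 (-0.44) passed and that of Iigp1 (-0.16, adjusted p = 0.198) did not, nor did Iigp1 without Cd mice 5 and 6 (-0.26, adjusted p = 0.190). In Cd+Se against Cd, Irgm2 (0.98), Tgtp1 (0.74), Irgm1 (0.54) and Iigp1 (0.49) rose, that is 4 of 16 genes beside 13.6% of all genes. After quantile normalization 3 rose and 1 other fell, where 1170 of all 11766 genes rose and 908 fell. After centring 2 rose and 1 fell, where 937 of all genes rose and 1272 fell. Without Cd mice 5 and 6, Irgm2 and Irgm1 rose. Tgtp1 passed in none of these settings (adjusted p = 0.150 after centring), Irgm1 was lost after centring (0.35, adjusted p = 0.0554) and Iigp1 without the mice. Irgm2 was the 1 gene of the 16 that passed the interaction (1.21, adjusted p = 0.0343, limma), where 1.04% of all genes did. Its adjusted p exceeded 0.05 in 9 of 25 alternatives. The interaction was also passed by 1 of 11 sensors and adaptors and 1 of 9 negative regulators. Among class I presentation genes, 2 of 18, H2-K1 (0.40, adjusted p = 0.0118) and B2m (0.36, adjusted p = 0.0226), rose with cadmium and none fell. After centring on the median 7 rose, where 2260 of all 11766 genes rose. After quantile normalization neither H2-K1 (0.18, adjusted p = 0.204) nor B2m (0.23, adjusted p = 0.0719) passed, while 2 other genes of the list and 1710 of all genes rose. B2m fell in Cd+Se against Cd (-0.38, adjusted p = 0.0309, or -0.45 and 0.0680 without Cd mice 5 and 6). With the fit limited to the groups compared, no gene of any of these lists passed in Cd+Se against Cd.

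**Figure D4:**
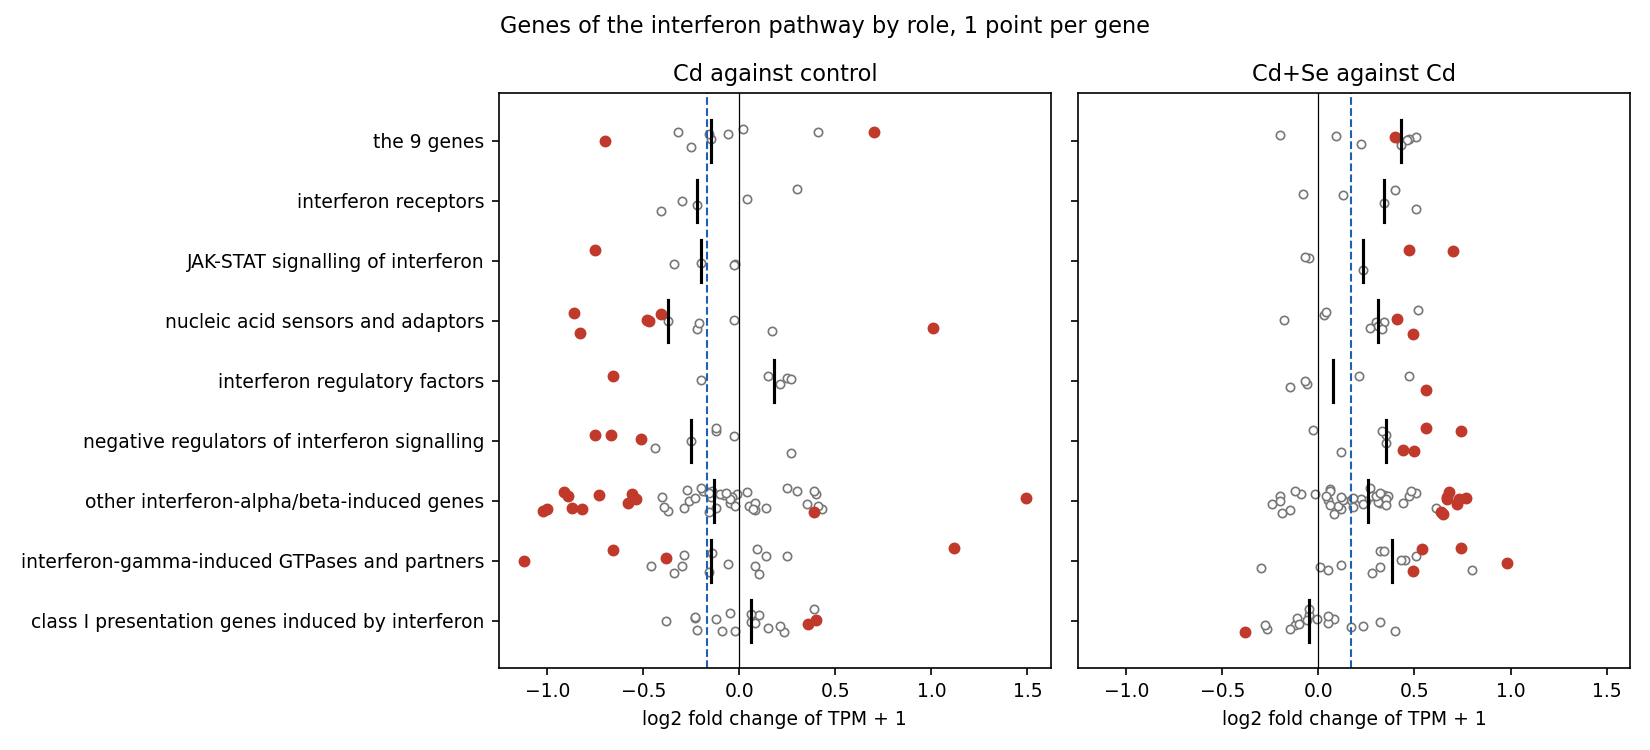
Log2 fold change of TPM + 1 (x axis) of each tested gene in 9 groups of interferon pathway genes, in Cd against control and Cd+Se against Cd, with filled red points for an adjusted p under 0.05 (limma), a black bar at the median of each group and a dashed blue line at the median of all tested genes. With cadmium Cxcl10 (1.49) and Irgm2 (-1.12) lie farthest to either side, and the black bar of the 9 genes (-0.15) lies next to the blue line (-0.17).

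Markers of several cell types that make or answer interferons moved between the same groups, and in whole liver fewer cells of a type and less RNA per cell cannot be told apart. All 6 Kupffer cell genes fell in Cd mice, where 24.9% of all genes fell and 5.82% rose, led by Vsig4 (-1.96, adjusted p = 5.25e-05) and Timd4 (-1.90, adjusted p = 1.42e-05), and 5 of the 6 fell without Cd mice 5 and 6 and under either scaling. Of these 6, Adgre1 alone passed in Cd+Se against Cd, where it rose (0.78, adjusted p = 0.0259, limma) as did 13.6% of all genes. Adgre1 was lost after centring (0.58, adjusted p = 0.0606) and without Cd mice 5 and 6 (0.75, adjusted p = 0.112). The sum of the 6 genes was 116 ± 11.7 TPM in control, 44.8 ± 8.89 in Cd, 53.6 ± 14.7 in Cd+Se and 98.6 ± 37.8 TPM in Se mice. Of 4 neutrophil genes tested 3 rose, led by S100a8 (1.55, adjusted p = 0.000290), and the same 3 rose without Cd mice 5 and 6, with sums over 5 genes of 12.6 ± 4.87, 37.2 ± 4.09, 55.7 ± 14.1 and 8.27 ± 1.71 TPM in the same order. Of 3 monocyte genes tested, Ly6c2 (0.66) and Ccr2 (0.56) rose in Cd mice and Lyz2 did not pass (-0.05, adjusted p = 0.843). In Cd+Se against Cd, where 13.6% of all genes rose, Lyz2 alone of the 3 passed and rose (0.83, adjusted p = 0.00972, limma). It passed under both scalings but not without Cd mice 5 and 6 (0.77, adjusted p = 0.0553). Without Cd mice 5 and 6 Ly6c2 was at 0.75 in Cd against control (adjusted p = 0.0511). The sum over 5 monocyte genes, most of it Lyz2, was 49.5 ± 7.78 TPM in control, 50.2 ± 8.22 in Cd, 90.2 ± 20.2 in Cd+Se and 48.5 ± 8.05 TPM in Se mice. Like Lyz2, this sum was alike in control and Cd mice, and it was higher in each Cd+Se mouse than in any other mouse. Of all genes tested, 16.1% were higher in every Cd+Se mouse than in every Cd mouse. Cx3cr1 and Itgam, which missed the filter, were higher in Cd than in control mice. They were at 0.46 to 0.62 and 0.3 to 0.59 TPM in Cd mice, and at 0.11 to 0.15 and 0.15 to 0.27 TPM in control mice. Cd+Se mouse 13, the highest for 6 of the 9 genes, also had the highest monocyte sum (117 TPM) and neutrophil sum (76.6 TPM) of its group and the lowest Kupffer cell sum (32.1 TPM). Of 5 sinusoidal endothelial genes tested, Stab2 fell in Cd mice (-0.62, adjusted p = 0.0205, over 0.05 in 7 of 26 alternatives) and Lyve1 rose in Cd+Se against Cd (1.09, adjusted p = 0.0138), with sums of 94.8 ± 6.43, 73.3 ± 9.30, 94.4 ± 28.9 and 73.2 ± 13.7 TPM in the same order. Lyve1 also passed the interaction (1.62, adjusted p = 0.0434, limma, over 0.05 in 14 of 24 alternatives), where 1.04% of all genes passed. Of 3 stellate cell genes tested, Reln fell in Cd mice (-0.93, adjusted p = 0.0104), and without Cd mice 5 and 6 Stab2 (-0.51), Lyve1 (0.71) and Reln (-0.84) did not pass. Stab2 was also lost after quantile normalization (-0.40, adjusted p = 0.0691) and after centring (-0.40, adjusted p = 0.0689). The stellate sums over 4 genes were 112 ± 19.8, 94.6 ± 20.8, 133 ± 49.2 and 104 ± 27.9 TPM. Cd+Se mouse 15, the lowest of its group for 6 of the 9 genes (Irf7, Isg15, Ifit1, Ifit3, Oasl2 and Ifi44) and the highest for Usp18, also had the lowest endothelial (51.7 TPM) and stellate (60.5 TPM) sums of its group. Of 3 plasmacytoid dendritic cell genes tested, Tcf4, which other cells express as well, fell in Cd mice (-0.53, adjusted p = 0.00693) and rose in Cd+Se against Cd (0.43, adjusted p = 0.0364, over 0.05 in 9 of 25 alternatives and at 0.23 after centring), and Irf8 and Bst2 passed in neither, though both rose in Cd mice after centring. The rise of Tcf4 passed under neither scaling, nor without Cd mice 5 and 6 (0.36, adjusted p = 0.143). The sums over 5 plasmacytoid dendritic cell genes, nearly all of it Bst2, were 183 ± 12.6, 202 ± 32.3, 187 ± 26.1 and 190.3 ± 27.4 TPM. The defining genes of these cells, Siglech and Ccr9, stayed under 1 TPM in every library, as did Cd4, Cd8a and Ncr1 of T and NK cells and Ms4a1 of B cells, and none of the T, NK and B cell genes reached the filter. The part of these cells in the changes of Isg15, Igtp and Irf7 was not tested.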

How the data were processed

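Liver RNA of 16 mice was extracted with TRIzol, poly(A)-selected and sequenced on an Illumina NovaSeq platform. The authors deposited 1 table of TPM values. Their processing notes, per the labels, name fastp, HISAT2 and StringTie without versions, and a human build (GRCh38), while the rows carry mouse identifiers. The build is therefore uncertain and no gene coordinates were taken from it. Sample titles hold pairs of repeat names, and the table has 1 column per mouse.

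Here, log2(TPM + 1) was fitted for the 11766 genes averaging 1 TPM or more with limma 3.58.1 (R 4.3.3), with a mean per group, 16 libraries in 1 fit and a trended variance. P-values are two-sided and adjusted by Benjamini-Hochberg over all genes tested, with a threshold of 0.05, and fold changes understate the change of low genes. The script was tested on simulated data. The 9 genes are all named. Pathway and marker genes are named by the up to 4 largest changes past the threshold per list and comparison, otherwise by the 3 highest means. Stat2, Irf9 and Ticam1 were added after their values were seen. Of the signalling list, 1 gene is not reported here. The genes and lists were chosen with earlier results of these data known. Alternatives were another pseudocount (0.1), other filters, quantile normalization, median centring, a fit of only the groups compared, no variance trend, protein-coding genes only, a log2 fold change of at least 1, and leaving out mice. Leaving out Cd mice 5 and 6 together was chosen after seeing the data.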

Additional observations from a re-analysis of the deposited data

How the results depend on the processing

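Of 1371 fold changes of the 9 genes under up to 26 alternatives, 1314 kept their direction and their side of the threshold, 27 changed sign, 22 lost the threshold and 8 gained it. Most of the 1371 belong to results that had not passed and so could not lose the threshold. The losses all fell on the results that had passed. These were Isg15 (7 of 26) and Igtp (4 of 26) in Cd against control and Irf7 (11 of 26) in Cd+Se against Cd. In Cd against control 2 of the 9 genes passed, Isg15 and Igtp, or Isg15 and Oasl2 after quantile normalization or median centring. This number was 1 without a filter on low values, 0 with a log2 fold change of at least 1 required, 0 without Cd mice 5 and 6, which leaves 2 Cd mice, and 1 to 3 on leaving out 1 mouse. For Cd+Se against Cd 1 gene passed, and 0 did with a log2 fold change of at least 1, after quantile normalization, after median centring, in a fit of only the groups compared and without Cd mice 5 and 6, with 0 to 2 on leaving out 1 mouse. The number in Cd+Se against Se and in the interaction was 0 to 1 on leaving out 1 mouse. The causes were not tested.

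Signs that turned were small. In Cd against control, quantile normalization gave 0.02 for Irf7 and 0.16 for Usp18, and median centring gave 0.06 for Irf7, 0.16 for Usp18 and 0.07 for Rsad2. Without Cd mice 5 and 6, Usp18 was at 0.03 and Ifi44 at -0.03, and without 1 mouse Usp18 ranged from -0.15 to 0.01 and Ifi44 from -0.10 to 0.09. Ifi44 in Cd+Se against Cd was at -0.06 and -0.10 under the same scalings and ranged from -0.05 to 0.34 without 1 mouse. Against control, Ifit3 in Cd+Se mice ranged from -0.05 to 0.59 and Ifi44 from -0.03 to 0.36. In Se against control, Irf7 ranged from -0.01 to 0.11, Isg15 from -0.21 to 0.08, Oasl2 from -0.16 to 0.15 and Igtp from -0.16 to 0.06, and in the interaction Isg15 ranged from -0.35 to 0.02.

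Scaling moved the median of all genes from -0.17 to -0.01 (quantile) or 0.05 (centring) in Cd against control, and the share of passing genes that fell in the interaction from 13.1% to 37.4% or 56.9%. Of all genes, 3619 passed in Cd against control, or 376 with a log2 fold change of at least 1 and 2102 without Cd mice 5 and 6. Between Cd+Se and Cd 1876 passed, or 110 and 437 in these settings, 1131 without a filter and 66 in a fit of only the groups compared. In the interaction 122 passed, or 71 and 35 in these settings, 26 without a filter, 524 after quantile normalization and 731 after centring. Between Cd+Se and control 57 passed, or 26 with a mean of at least 5 TPM, 104 and 101 under the 2 scalings and 18 in a fit of only the groups compared, and in Cd+Se against Se 84 passed, or 31 and 11 with that filter and that fit. Leaving out 1 mouse gave 712 to 2164 genes in Cd+Se against Cd, 26 to 103 against control, 28 to 193 against Se and 2 to 348 in the interaction. A mean of at least 5 TPM left no value for Oasl2, Ifit1, Ifi44 and Rsad2, and a fit of 2 groups none for the interaction. No paired analysis was possible because no mouse number is shared between groups. Depth is unknown, and values near 1 TPM, as for Rsad2 and Ifi44, may rest on few reads.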
